A study of Homo sapiens with 21 samples.

Results

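The genes described here are the C2H2 zinc finger genes of human chromosome 19, taken as every protein-coding gene of that chromosome whose symbol is ZNF followed by a number. The deposited tables hold 226 of them among 28808 genes in all. Of these, 115 reached 1 FPKM (fragments per kilobase of gene length, scaled to the size of the library) in at least 3 of the 21 libraries and were tested, among 13405 genes tested. The other 111 did not reach that level. Of the 115, 13 reached 1 FPKM in 3 libraries only when exposed libraries were counted, 6 only when unexposed ones were and 2 only when both were. A member kept by 1 kind of library alone tended by that choice to be higher there, so its change gives no independent support.

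The cells were C3A, a human hepatoma line derived from HepG2 and labelled wild type. One group of 6 libraries came from cells with no herbicide, and 5 groups of 3 libraries each came from cells exposed for 48 h. Single agents were the herbicide glyphosate at 5.6 µM, which equals 0.95 µg/mL, AMPA, into which glyphosate breaks down, at 34 µM, which equals 3.7 µg/mL, and the herbicide 2,4-D at 2.5 µM, which equals 0.56 µg/mL. The mixtures joined 2,4-D to glyphosate or to AMPA at those same concentrations. The labels do not say whether libraries of 1 group came from separate cultures, so p-values measure the spread between these libraries, which may be technical.

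Most proteins of this family carry an array of C2H2 fingers that reads DNA and, at the other end, a KRAB box. The KRAB box binds TRIM28, which brings the histone methyltransferase SETDB1, HP1 proteins and deacetylases to the bound site, and many of the known sites lie in retrotransposons. The genes arose by repeated tandem duplication and stand in dense clusters along chromosome 19, where close copies share sequence.

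The family was expressed at low levels in C3A cells. Mean FPKM over the 21 libraries had a median of 1.61 among the 115 tested genes, against 4.71 among all genes tested, and 69 of the 115 had a mean under 2 FPKM. Behind these values stood, in the shallowest library of each gene, between 17 and 1090 reads with a median of 97. ZNF581 was highest with a mean of 27.3 FPKM, followed by ZNF146 with 19.4 FPKM and ZNF787 with 18.5 FPKM. At the edge of the filter, ZNF17, ZNF416 and ZNF420 had a third-highest library of 1.00, 1.01 and 1.04 FPKM, and ZNF227, ZNF71 and ZNF417 just missed it with 0.996, 0.977 and 0.957 FPKM. None of the 111 untested genes was at 0 in every library, and their highest single values ran from 0.00901 to 1.16 FPKM. Among them were ZNF93 and ZNF568, known respectively for silencing LINE-1 elements in primates and a placental Igf2 promoter in mice, which did not exceed 0.138 and 0.0468 FPKM in any library.

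A search of the coding sequences found a KRAB box in 192 of the 226 genes and in 87 of the 115 tested, leaving 28 tested genes without one; a divergent box, such as that of ZNF473, is missed by this search. Both groups differed in other properties. Genes with the box had a median of 13 fingers and a transcript GC content of 42.4%, and those without it had 8.5 fingers and 60.2% GC, against 48.6% GC over all genes tested. Median expression was 1.47 FPKM with the box and 2.51 FPKM without. Of the 9 tested genes with a mean of at least 5 FPKM, ZNF561, ZNF317 and ZNF266 had the box, and ZNF581, ZNF146, ZNF787, ZNF428, ZNF444 and ZNF524 did not.

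Promoters were matched by symbol in RefSeq (GRCh38.p14) for 104 of the tested genes. In the 250 bases before the start, a GC box (GGGCGG, either strand) was present in 70.2% of the 104 against 56.0% of 15843 protein-coding promoters, a CCAAT box (CCAAT, either strand) in 50% against 34.5%, and an ETS site (CCGGAAG, either strand) in 23.1% against 11.8%. A TATA box (TATAAA, either strand) was present in 1.92% against 9.23%. The E-box (CACGTG, its own reverse complement) was found in 3.85% against 7.84%, the cyclic AMP response element (TGACGTCA, also its own reverse complement) in 3.85% against 2.32%, and the core of the heat shock element (GAANNTTC, likewise) in 6.73% against 4.81%. Median GC of these windows was 61.6% against 62.4%. The 120 bases just upstream of both RefSeq's start and the gene model of the tables are shown for 3 genes that rose under the exposures (ZNF121, ZNF317 and ZNF256) and 3 that fell (ZNF784, ZNF414 and ZNF526), with matches to any of these motifs in capitals. In order, they lie at chr19:9584534-9584653 (minus strand), chr19:9140260-9140379 (plus), chr19:57947707-57947826 (minus), chr19:55624602-55624721 (minus), chr19:8514168-8514287 (minus) and chr19:42220151-42220270 (plus).
ZNF121: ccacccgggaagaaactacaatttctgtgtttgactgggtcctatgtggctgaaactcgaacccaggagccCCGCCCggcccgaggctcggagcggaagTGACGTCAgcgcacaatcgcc
ZNF317: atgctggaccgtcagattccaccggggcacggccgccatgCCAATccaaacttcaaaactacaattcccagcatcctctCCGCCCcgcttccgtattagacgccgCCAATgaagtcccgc
ZNF256: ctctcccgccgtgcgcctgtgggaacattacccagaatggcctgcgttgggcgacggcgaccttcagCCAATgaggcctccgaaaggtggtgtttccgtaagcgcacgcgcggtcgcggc
ZNF784: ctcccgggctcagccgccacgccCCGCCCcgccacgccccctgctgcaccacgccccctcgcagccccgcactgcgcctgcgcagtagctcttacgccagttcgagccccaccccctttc
ZNF414: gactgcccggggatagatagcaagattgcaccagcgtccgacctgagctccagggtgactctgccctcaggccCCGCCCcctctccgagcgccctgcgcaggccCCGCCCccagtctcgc
ZNF526: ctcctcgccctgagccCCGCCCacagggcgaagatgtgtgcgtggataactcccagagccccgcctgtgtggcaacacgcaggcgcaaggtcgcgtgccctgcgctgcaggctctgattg
A match is a stretch of letters and not a binding site. ZNF121 held a GC box and a cyclic AMP response element, ZNF317 a GC box between CCAAT boxes, and ZNF256 a CCAAT box. ZNF784, ZNF414 and ZNF526 each held at least 1 GC box and none of the other motifs.

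The hepatocyte genes ALB (2249 to 4390 FPKM), AFP and HNF4A were expressed in all libraries, while CD68, PECAM1, CDH5 and COL1A1 stayed at or under 0.199 FPKM; among markers of other cells, PDGFRB was measured at 1.22 to 2.78 FPKM. In whole cultures, fewer cells of a kind and less RNA per cell cannot be told apart. Reads recovered from the FPKM values came to between 15.2 and 24.4 M per library. Before any exposure is considered, the unexposed libraries fell into replicates 1 to 3 and 4 to 6, whose values did not overlap in 45.5% of all genes tested. The labels name no batch for them, and exposure cannot be told apart from any batch that all exposed libraries share.

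Members rose and fell in each exposure. Their shares lay furthest below those of all genes for rises with glyphosate + 2,4-D and for falls with AMPA + 2,4-D. The other shares lay closer to those of all genes, some above and some below. With glyphosate, 27 of the 115 rose and 28 fell (limma adjusted p under 0.05), where 27.7% of all genes tested rose and 25.1% fell. With AMPA, 27 rose and 30 fell, beside 28.0% and 24.8% of all genes. The counts were 29 and 21 with 2,4-D (background 25.0% and 22.6%), 21 and 20 with glyphosate + 2,4-D (25.4% and 22.7%), and 32 and 16 with AMPA + 2,4-D (26.0% and 24.4%). Exposed and unexposed libraries did not overlap, in either direction, for 43 genes with glyphosate (45.5% of all genes), 45 with AMPA (44.4%), 36 with 2,4-D (39.7%), 38 with glyphosate + 2,4-D (40.4%) and 41 with AMPA + 2,4-D (39.3%). These comparisons all use the same 6 unexposed libraries.

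Median changes of the family stayed near 0. On the scale of log2(FPKM + 1), on which all changes here are given and which understates the change of genes at 1 to 2 FPKM, the median of the 115 genes was 0.01 with glyphosate, 0.01 with AMPA, 0.04 with 2,4-D, -0.00 with glyphosate + 2,4-D and 0.05 with AMPA + 2,4-D. All genes tested had medians of 0.01, 0.01, 0.00, 0.00 and 0.00. The median 95% interval of a single member reached 0.17 to either side. The 161 tested ZNF genes of other chromosomes split 31 to 53 (higher to lower) with glyphosate, 32 to 54 with AMPA, 32 to 49 with 2,4-D, 26 to 52 with glyphosate + 2,4-D and 34 to 47 with AMPA + 2,4-D. Among 645 other protein-coding genes of chromosome 19 the split was 249 to 127 with glyphosate and 156 to 166 with AMPA + 2,4-D. The differences between these sets were not tested.

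The balance of rises and falls depended on how libraries were scaled. When each library was rescaled to one fixed sum of FPKM (TPM), the median change of all genes moved to -0.14 with AMPA, -0.12 with glyphosate + 2,4-D and -0.10 with AMPA + 2,4-D. The share of all called genes that were higher then went from 52.5% to 37.6% with glyphosate, from 53.1% to 29.8% with AMPA, from 52.4% to 35.8% with 2,4-D, from 52.9% to 31.5% with glyphosate + 2,4-D, and from 51.7% to 33.2% with AMPA + 2,4-D. In the family the counts became 21 higher and 34 lower with glyphosate, 14 and 40 with AMPA, 20 and 32 with 2,4-D, 15 and 35 with glyphosate + 2,4-D, and 21 and 19 with AMPA + 2,4-D. Relative to the shifted median of all genes, the family's median lay 0.01, 0.02, 0.06, 0.02 and 0.07 above it in the same order.

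ZNF121 (ENSG00000197961, chr19:9560353-9584533, minus strand), a gene of 9 fingers without a KRAB box, was the member with the largest rise with glyphosate, AMPA and AMPA + 2,4-D. Its 6 unexposed libraries ran from 2.38 to 3.00 FPKM with a median of 2.82. Its values were 5.22, 5.31 and 5.20 FPKM with glyphosate, 4.92, 4.79 and 5.41 with AMPA, 4.86, 4.88 and 4.37 with 2,4-D, 4.91, 5.20 and 5.16 with glyphosate + 2,4-D, and 5.12, 4.97 and 4.50 with AMPA + 2,4-D. All 15 exposed libraries thus lay above all 6 unexposed ones. The log2 change ran from 0.60 with 2,4-D to 0.74 with glyphosate (SE 0.06; limma adjusted p between 7.85e-09 and 1.28e-07), and FPKM was 1.71 to 1.90 times the unexposed mean.

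ZNF473 (ENSG00000142528, chr19:50025714-50053414, plus strand), whose product takes part in the processing of histone pre-mRNA through the U7 particle, rose in each exposure. Unexposed libraries ran from 1.56 to 2.15 FPKM with a median of 1.80. It was measured at 3.25, 3.47 and 3.43 FPKM with glyphosate, 3.43, 3.52 and 3.62 with AMPA, 3.56, 2.85 and 3.57 with 2,4-D, 3.25, 3.09 and 3.10 with glyphosate + 2,4-D, and 2.92, 3.10 and 3.16 with AMPA + 2,4-D. No exposed library overlapped the unexposed range. The log2 change was 0.52 to 0.68 (SE 0.06; limma adjusted p at most 3.6e-06). Its exons overlap those of VRK3 and AC010624.3, both on the opposite strand, by at most 245 bases each. Since the strand setting of the counting is not given, reads of the shared stretches cannot be assigned. VRK3 had negative log2 changes, from -0.21 to -0.11. AC010624.3 had means of 0.129 FPKM unexposed and 0.304 FPKM exposed.

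ZNF317 (ENSG00000130803, chr19:9140380-9163424, plus strand), a KRAB gene of 13 fingers in the same neighbourhood as ZNF121, rose in each exposure. The 6 unexposed libraries lay between 4.85 and 5.18 FPKM, with a median of 4.99. Values were 7.13, 7.86 and 6.93 FPKM with glyphosate, 7.34, 7.04 and 7.63 with AMPA, 7.26, 6.93 and 7.01 with 2,4-D, 6.89, 7.11 and 7.45 with glyphosate + 2,4-D, and 6.38, 5.80 and 6.62 with AMPA + 2,4-D. Again every exposed library was higher, and those with AMPA + 2,4-D were the closest to the unexposed ones. Changes were 0.27 with AMPA + 2,4-D and 0.42 to 0.47 elsewhere (SE 0.04; limma adjusted p at most 4.61e-05).

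Other leading rises were smaller in FPKM. ZNF567 (chr19:36687612-36727701), a KRAB gene, had 0.627 to 1.11 FPKM unexposed and 1.24 to 2.01 FPKM over the 15 exposed libraries, without overlap, and its log2 change was 0.41 to 0.53 (limma adjusted p at most 0.00108). It passed the filter only through exposed libraries, since 1 unexposed library reached 1 FPKM. ZNF296 (chr19:45071500-45076588), which has no KRAB box, stood at 0.888 to 1.41 FPKM unexposed and at 1.54 to 2.52 FPKM exposed, with changes of 0.36 to 0.54 (limma adjusted p at most 0.00369). ZNF460 (chr19:57280051-57293569), with a KRAB box, rose by 0.38 to 0.5 in 4 exposures but not with glyphosate + 2,4-D (0.14; limma adjusted p = 0.208), where its libraries were at 1.87, 2.24 and 2.60 FPKM, the first and second of them inside the unexposed range of 1.5 to 2.5. ZNF256 (chr19:57940833-57947675), a KRAB gene, had a higher unexposed set 4 to 6 (0.729, 1.29 and 0.938 FPKM) than set 1 to 3 (0.580, 0.640 and 0.569 FPKM). It rose in each exposure, most with glyphosate + 2,4-D, where 2.40, 1.78 and 1.83 FPKM gave a change of 0.75 (SE 0.12; limma adjusted p = 4.18e-05). It too was tested only through its exposed libraries. Without unexposed replicates 1 to 3 its call with 2,4-D was lost. Its call with AMPA + 2,4-D was lost in 5 alternatives. These were without unexposed replicates 1 to 3, with only the groups compared, and without replicate 1 or replicate 3 of the mixture. The last was library 2 of the mixture alone, a fit with less power.

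ZNF784 (ENSG00000179922, chr19:55620742-55624601, minus strand), a little-studied gene of 6 fingers without a KRAB box, fell in each exposure. Its unexposed values ran from 4.68 to 6.09 FPKM with a median of 5.13. Exposed values were 3.53, 3.38 and 3.02 FPKM with glyphosate, 3.65, 3.42 and 2.64 with AMPA, 3.40, 2.87 and 2.53 with 2,4-D, 4.06, 2.86 and 3.61 with glyphosate + 2,4-D, and 3.53, 3.35 and 2.83 with AMPA + 2,4-D. Every exposed library was lower than every unexposed one. The log2 change was between -0.66 (2,4-D) and -0.46 (glyphosate + 2,4-D), with an SE of 0.10 and limma adjusted p between 3.43e-05 and 8.83e-04.

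ZNF446 (ENSG00000083838, chr19:58474017-58481230, plus strand) fell in each exposure, and passed the filter only through its unexposed libraries. From 1.14 to 1.35 FPKM unexposed, it was at 0.773, 0.581 and 0.672 FPKM with glyphosate, 0.654, 0.523 and 0.342 with AMPA, 0.647, 0.778 and 0.614 with 2,4-D, 0.699, 0.798 and 0.589 with glyphosate + 2,4-D, and 0.726, 0.814 and 0.574 with AMPA + 2,4-D. Groups did not overlap. The change with AMPA was -0.60 (SE 0.08; limma adjusted p = 6.89e-06), and FPKM was 0.399 times the unexposed mean. Between 27 and 74 reads stood behind each exposed value. Its exons overlap ZNF324 on the same strand by 1420 bases, and the bile acid ligase gene SLC27A5 and AC012313.7 on the opposite strand, so its level is uncertain. SLC27A5 had log2 changes of -0.21 to -0.01. ZNF324 had means of 0.767 FPKM unexposed and 0.606 FPKM exposed, and AC012313.7 of 0.825 and 0.378 FPKM, lower when exposed as ZNF446 was; its part in the result was not tested. With replicate 2 as the only AMPA + 2,4-D library, a fit with less power, the call of ZNF446 there was lost.

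ZNF414 (ENSG00000133250, chr19:8509678-8514164, minus strand) had 1.79 to 2.39 FPKM unexposed and 0.633 to 1.66 FPKM exposed, without overlap. Its change was largest with AMPA (1.26, 1.06 and 0.633 FPKM; log2 change -0.68, SE 0.11, limma adjusted p = 3.64e-05). ZNF526 (ENSG00000167625, chr19:42220271-42228201, plus strand) dropped from a range of 2.70 to 3.29 FPKM to one of 1.74 to 2.51 FPKM, with changes of -0.49 to -0.35. ZNF552 (chr19:57803841-57814913), a KRAB gene, was at 1.99 to 2.43 FPKM unexposed. It stood at 1.10 to 1.47 FPKM with the other exposures and at 1.61, 1.56 and 1.82 FPKM with AMPA + 2,4-D, so that its change there (-0.27) was smaller than in the others (-0.50 to -0.48). ZNF541 (chr19:47520685-47555856), known from germ cells as a factor of meiosis, fell from 1.12 to 1.76 FPKM to 0.469 to 0.986 FPKM, with changes of -0.55 to -0.29. It was tested only because its unexposed libraries reached 1 FPKM. Its call with glyphosate + 2,4-D was lost without unexposed replicates 1 to 3 (limma adjusted p = 0.078). ZNF563 (chr19:12317477-12333720), with a KRAB box, fell in 4 exposures by -0.57 to -0.37 on the log2 scale and had a value of -0.24 with AMPA + 2,4-D (limma adjusted p = 0.0562).

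**Figure D1:**
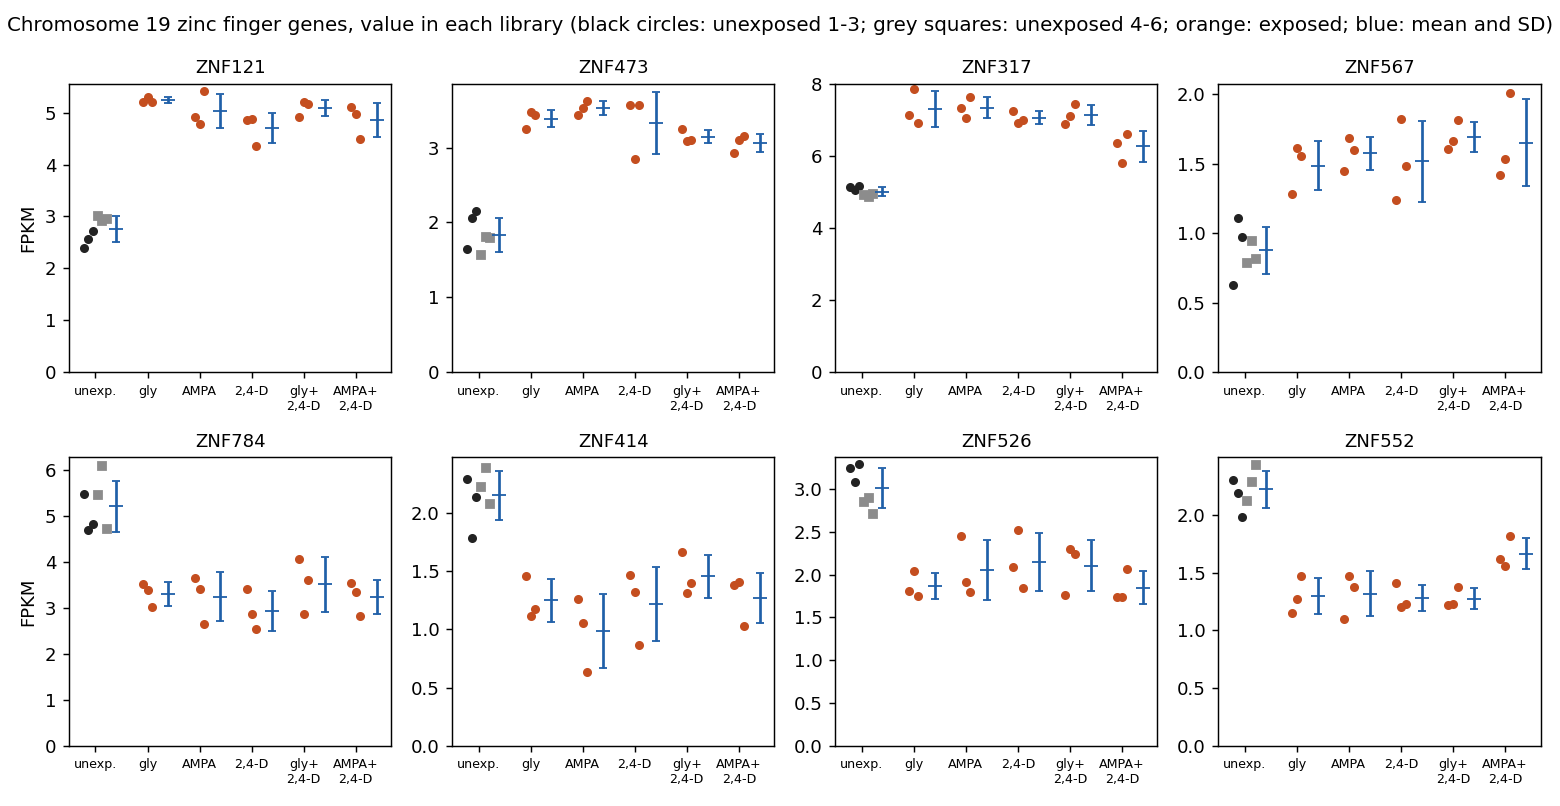
FPKM of 8 leading genes in each library (points), by group, with the mean and SD of each group in blue; circles and squares among the unexposed libraries are replicates 1 to 3 and 4 to 6. ZNF121, ZNF473, ZNF317 and ZNF567 lay above the unexposed range in all 15 exposed libraries, and ZNF784, ZNF414, ZNF526 and ZNF552 below it.

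The calls of ZNF121, ZNF473, ZNF317, ZNF296, ZNF460, ZNF567, ZNF784, ZNF526 and ZNF552 against unexposed cells were kept in every alternative that tested them, whether by scaling, filter, pseudocount, left-out library or correction for GC and length. ZNF414 lost its call with AMPA + 2,4-D in a fit that kept only library 2 of that group (limma adjusted p = 0.093), and with glyphosate + 2,4-D without replicate 2 of that group (0.0522).

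Genes with and without a KRAB box split differently, which was described and not tested. Of the 87 genes with the box, 21 rose and 19 fell with glyphosate, 21 and 19 with AMPA, 26 and 13 with 2,4-D, 17 and 11 with glyphosate + 2,4-D, and 29 and 6 with AMPA + 2,4-D. Of the 28 without it, 6 rose and 9 fell with glyphosate, 6 and 11 with AMPA, 3 and 8 with 2,4-D, 4 and 9 with glyphosate + 2,4-D, and 3 and 10 with AMPA + 2,4-D. In that order, 27.7%, 28.0%, 25.0%, 25.4% and 26.0% of all genes tested rose. Falls made up 25.1%, 24.8%, 22.6%, 22.7% and 24.4% of all genes. The medians of the genes with the box were 0.03, 0.04, 0.07, 0.05 and 0.09 in that order, and those without it had -0.05, -0.09, -0.06, -0.07 and -0.06. In TPM the KRAB genes split 16 to 24, 11 to 26, 17 to 20, 12 to 22 and 18 to 8. Rises thus still led with AMPA + 2,4-D, and falls led in the other 4 exposures. TPM also lowered the share of all called genes that were higher, as given above.

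Transcript GC moved with the change most with AMPA + 2,4-D. Over the 115 genes, Spearman correlations of the log2 change with GC were -0.07 with glyphosate, -0.15 with AMPA, -0.23 with 2,4-D, -0.18 with glyphosate + 2,4-D and -0.37 with AMPA + 2,4-D. Over all 13399 genes with a GC value they were -0.08, -0.10, -0.15, -0.13 and -0.30, and within the KRAB genes -0.05, -0.06, -0.09, -0.09 and -0.17; genes of 1 library share its composition bias, and these are descriptions. After a smooth trend in GC and length was removed from each library, the KRAB genes split 16 to 12 with AMPA + 2,4-D. The whole family split 20 to 22 in place of 32 to 16. Shares of all genes called in that fit are not given here, so these counts cannot be set against them. The libraries of AMPA + 2,4-D also differed among themselves. The KRAB genes summed to 186.2 and 186.4 FPKM in its replicates 1 and 3 and to 167.6 FPKM in replicate 2, while the first 3 unexposed replicates ran from 152.8 to 155.9 FPKM and the others from 168.4 to 172.7 FPKM. A fit with replicate 2 as the only library of that group has less power for every gene. Its counts of calls cannot be compared with those above and are left out. The part of base composition in the result was not tested beyond this removal.

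**Figure D2:**
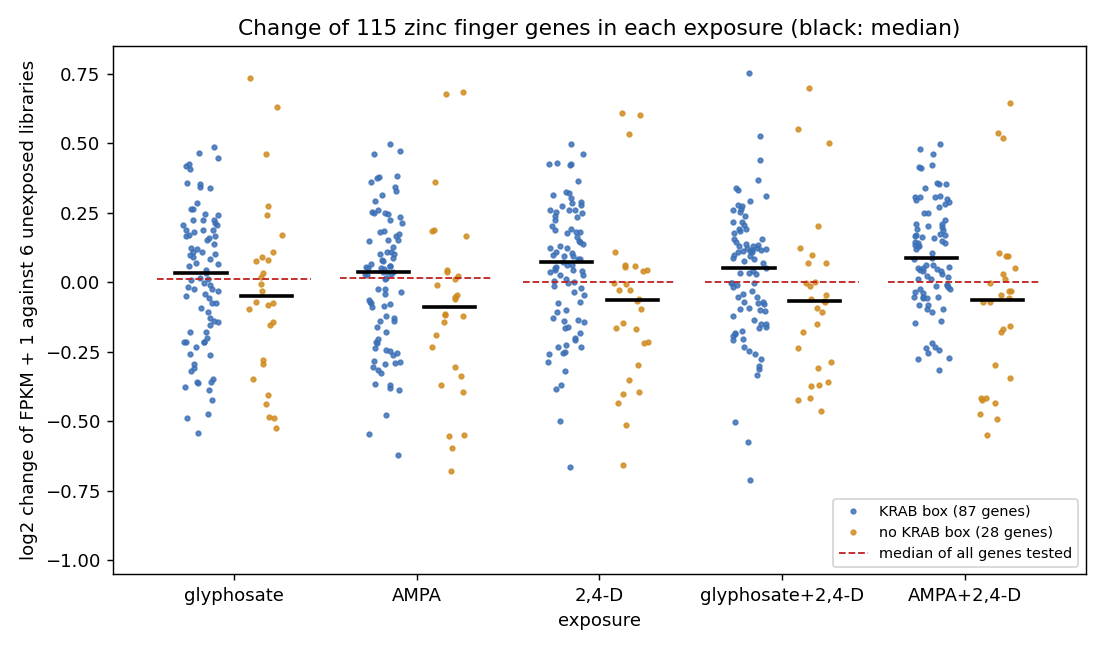
Change of each of the 115 tested genes (points) on the log2(FPKM + 1) scale in each exposure, split into 87 genes with and 28 without a KRAB box, with the group medians as black bars and the median of all genes tested as a dashed line. Medians lay at 0.03 to 0.09 with the box and at -0.09 to -0.05 without it, inside a spread from -0.71 to 0.75.

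Along the chromosome the 226 genes formed 16 neighbourhoods, parted wherever adjacent starts lay more than 1 Mb apart. Tested were 5 of 5 genes between 2.82 and 2.94 Mb, 7 of 26 between 36.18 and 37.82 Mb and 7 of 21 between 19.67 and 21.85 Mb. Like the smaller ones without rises given below, a neighbourhood picked out after its values were seen moved mostly one way. Between 51.57 and 53.58 Mb it holds 39 genes, all with a KRAB box, of which 21 were tested. Of these, 8 rose with glyphosate, 8 with AMPA, 11 with 2,4-D, 8 with glyphosate + 2,4-D and 10 with AMPA + 2,4-D, and none passed the test as lower in any exposure. In the same order, 27.7%, 28.0%, 25.0%, 25.4% and 26.0% of all genes tested rose. Falls made up 25.1%, 24.8%, 22.6%, 22.7% and 24.4% of all genes. Medians of the neighbourhood were 0.19, 0.11, 0.18, 0.13 and 0.20. TPM gave 8, 3, 7, 5 and 6 rises with 1 fall (AMPA), and removal of the GC and length trend gave 7, 5, 7, 4 and 4 rises, also with 1 fall (AMPA). Calls with replicate 2 as the only library of AMPA + 2,4-D are left out here too, for lack of power. The unexposed sets also differed here, 8 of the 21 genes being higher without overlap in replicates 4 to 6 and 0 lower. Without unexposed replicates 1 to 3 the splits were 7 to 1, 4 to 2, 7 to 1, 4 to 1 and 9 to 1. For these alternatives the shares of all genes called are not given here, so their counts cannot be set against them.

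Within that neighbourhood ZNF816 rose by 0.34 to 0.43, ZNF160 by 0.26 to 0.42, ZNF761 by 0.19 to 0.31 and ZNF468 by 0.21 to 0.29 on the log2 scale, each called in all 5 exposures. ZNF808, whose protein silences MER11 elements and which is known from pancreas development, had 0.487 to 0.706 FPKM unexposed and 0.751 to 1.08 FPKM exposed. It passed the filter only through exposed libraries, none of the unexposed ones having reached 1 FPKM. Its ranges did not overlap, and it rose in 4 exposures by 0.20 to 0.31; with AMPA the change was 0.17 (limma adjusted p = 0.055). Of its 4 calls, 3 were lost without unexposed replicates 4 to 6. ZNF331, an imprinted gene at the end of the same stretch, and ZNF350, whose product is a BRCA1-binding repressor, passed the test in no exposure. ZNF331 had changes of -0.18 to 0.04 and ZNF350 of 0.04 to 0.13. Neighbouring paralogs share sequence, and exons of ZNF808 overlap those of ZNF701 and RPL39P34 on the same strand by at most 712 bases each. Reads may thus be divided between copies in ways the counting does not show.

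Splits of 5 other neighbourhoods follow, as genes higher to lower, and were not tested against other genes. Of all genes tested, 27.7%, 28.0%, 25.0%, 25.4% and 26.0% rose, in the order of exposures used above. Falls were 25.1%, 24.8%, 22.6%, 22.7% and 24.4% of all genes, so counts in such small neighbourhoods say little. The 5 genes between 2.82 and 2.94 Mb gave no rise, and 2, 2, 1, 1 and 1 falls. The 7 tested between 19.67 and 21.85 Mb also gave no rise, and 2, 2, 1, 1 and 0 falls. The 33 tested genes between 55.48 and 58.48 Mb, at the end of the long arm, split 6 to 7 with glyphosate, 5 to 10 with AMPA, 5 to 7 with 2,4-D, 2 to 8 with glyphosate + 2,4-D and 6 to 8 with AMPA + 2,4-D. The 13 tested genes between 11.48 and 12.64 Mb split 1 to 4, 1 to 3, 3 to 3, 1 to 2 and 4 to 1. Of the 8 between 7.07 and 9.79 Mb, which include ZNF121, ZNF317 and ZNF414, 4 rose with glyphosate and 2 fell. Their medians, 0.21, 0.18, 0.22, 0.20 and 0.22, lay above those of the picked neighbourhood in each exposure.

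**Figure D3:**
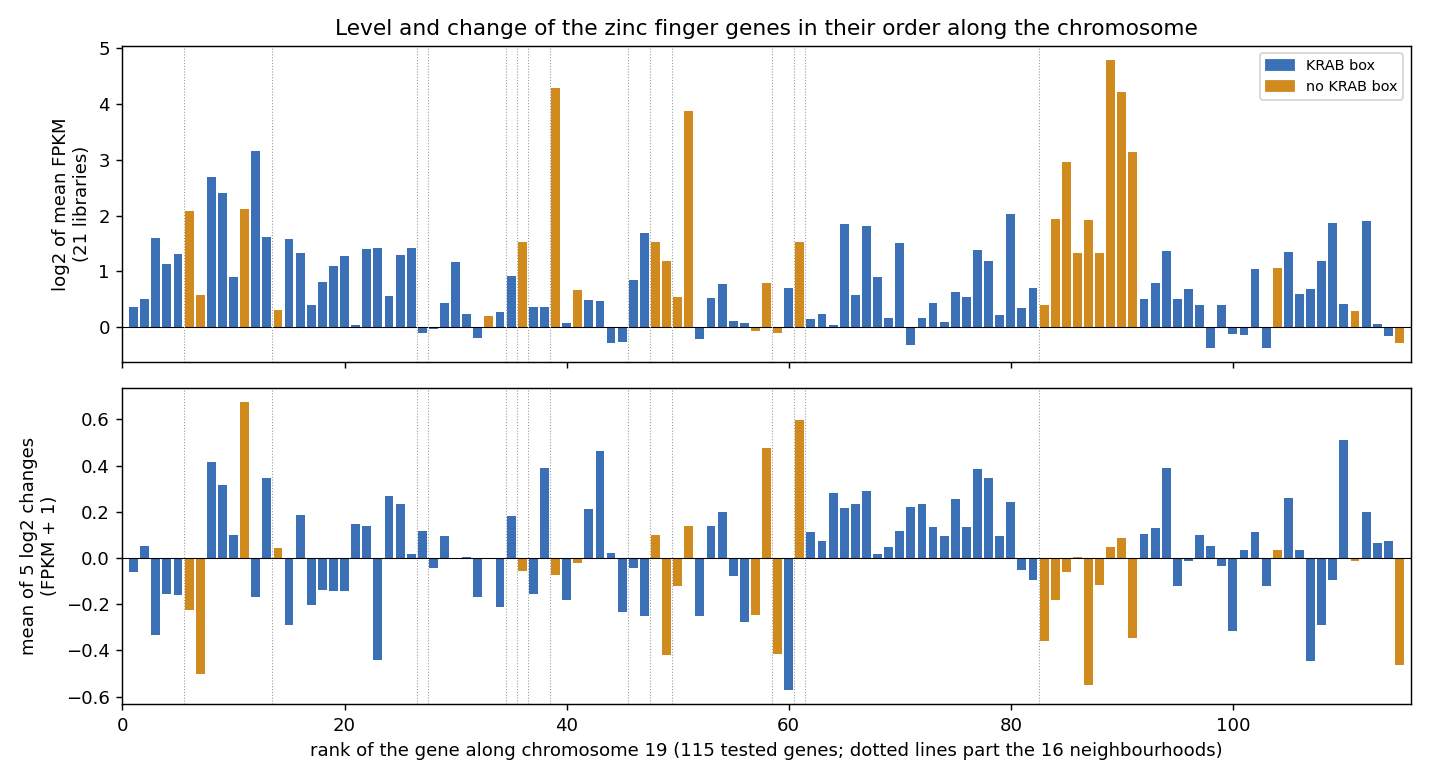
The 115 tested genes in their order along chromosome 19: upper panel, mean FPKM over 21 libraries on a log2 axis; lower panel, mean of the 5 log2 changes, with colour for the KRAB box and dotted lines between neighbourhoods. The run of mostly positive bars near the middle right is the neighbourhood of 21 tested KRAB genes, and the 4 highest levels belong to genes without the box.

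Among members with known targets, ZNF274 (chr19:58183029-58213562), which binds the 3' ends of zinc finger genes of this chromosome and brings SETDB1 there, was at 2.87 to 3.63 FPKM unexposed. It was measured at 4.08, 4.01 and 4.09 FPKM with glyphosate and 4.07, 4.16 and 3.97 FPKM with AMPA, above all unexposed libraries, while values with the other exposures overlapped them. It rose by 0.24 with glyphosate, 0.24 with AMPA, 0.20 with 2,4-D and 0.17 with AMPA + 2,4-D (SE 0.06; limma adjusted p between 0.00133 and 0.0154), and had 0.12 with glyphosate + 2,4-D (limma adjusted p = 0.0769). In TPM it was no longer called with AMPA, 2,4-D or AMPA + 2,4-D. ZNF91, the repressor of SVA elements, had 1.49 to 1.89 FPKM unexposed and 2.46, 2.01 and 2.19 FPKM with AMPA + 2,4-D, where it rose by 0.29 (limma adjusted p = 0.0024). That call was lost with the GC and length trend removed (limma adjusted p = 0.125) and with library 2 of the mixture alone, a fit with less power. With AMPA its call (0.17, limma adjusted p = 0.0485) was lost in most alternatives. ZNF224, a repressor of the aldolase A gene, rose by 0.21 with AMPA, 0.23 with 2,4-D and 0.25 with AMPA + 2,4-D, calls that were all lost in TPM.

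Genes of the co-repressor machinery rose and fell. All 28 listed were tested, and 7 rose and 7 fell with glyphosate, 8 and 8 with AMPA, 9 and 8 with 2,4-D, 8 and 8 with glyphosate + 2,4-D, and 10 and 7 with AMPA + 2,4-D. As shares these were 25% and 25%, 28.6% and 28.6%, 32.1% and 28.6%, 28.6% and 28.6%, and 35.7% and 25%, beside the shares of all genes given above (27.7% and 25.1% with glyphosate, 26.0% and 24.4% with AMPA + 2,4-D). TRIM28 itself ran from 68.4 to 72.5 FPKM in the first 3 unexposed replicates and from 86.3 to 90.2 FPKM in the others, with group means of 72.8 to 77.6 FPKM under the exposures. Its changes, from -0.12 to -0.03, passed the test in none, nor did those of SETDB1 (-0.08 to -0.01). ATF7IP, the partner of SETDB1, fell in each exposure, from 2.48 ± 0.0876 FPKM (SD, n = 6) to means of 1.83 to 2.18 FPKM (log2 change -0.30 to -0.13; limma adjusted p at most 0.0322). FAM208A, which encodes the TASOR subunit of the HUSH silencing complex, fell from 3.97 ± 0.513 FPKM to means of 1.75 to 2.30 FPKM (log2 change -0.85 to -0.59; limma adjusted p at most 2.73e-06). CHD3, a remodeller bound by TRIM28, rose by 0.30 to 0.46, and UHRF1, which couples DNA methylation to replication, by 0.36 to 0.48. In the first 3 unexposed replicates UHRF1 ranged from 2.45 to 3.21 FPKM, and in the others from 3.73 to 4.29 FPKM, with exposed means of 4.73 to 5.23 FPKM. Its lowest glyphosate library, at 4.22 FPKM, lay inside the second set, and against that set alone its log2 changes were 0.17 to 0.29. Among the other listed genes, DNMT3A, RBBP4 and CBX5 were also called lower in each exposure. DNMT1, HDAC1, HDAC2 and PPHLN1 were also called higher in each.

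Comparing AMPA with glyphosate, each mixture with its first agent and each mixture with 2,4-D alone gave 5 comparisons of groups with 3 libraries each. In 4 of them no member passed (limma adjusted p under 0.05), as no gene of the whole table did (background 0%). At an unadjusted limma p under 0.05 there were 2 members for AMPA against glyphosate (3.06% of all genes), 6 for glyphosate + 2,4-D against glyphosate (7.95%), 3 for glyphosate + 2,4-D against 2,4-D (4.31%) and 9 for AMPA + 2,4-D against 2,4-D (10.6%). In the last of these, the groups did not overlap for 21 members that were higher with the mixture and 2 that were lower, where the shares of all genes were 9.12% and 8.14%, and the median difference was 0.03. The median 95% interval of such a difference, without adjustment for the number of genes, reached 0.19 on either side. Differences larger than this also went uncalled after adjustment. The spread in this fit was shared with the 6 unexposed libraries, which fell into 2 sets. It may thus be wider than the spread within the exposed groups alone. The smallest p-values belonged to ZNF580 for AMPA against glyphosate (-0.34), ZNF574 for glyphosate + 2,4-D against glyphosate (-0.27), ZNF460 for glyphosate + 2,4-D against 2,4-D (-0.35) and ZNF556 for AMPA + 2,4-D against 2,4-D (0.24).

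AMPA + 2,4-D against AMPA alone was the exception, with 2 members higher and 1 lower, where 0.701% of all genes were called higher, 2.01% lower and 2.71% in either direction. At an unadjusted limma p under 0.05 there were 23 members, beside 18.2% of all genes. Groups did not overlap for 27 members higher with the mixture (12.1% of all genes) and 6 lower (13.4%), and the median difference was 0.09 against -0.00 over all genes. ZNF556 (chr19:2867335-2883445), a KRAB gene, had 3.41, 3.17 and 3.22 FPKM with the mixture and 2.65, 2.61 and 2.56 FPKM with AMPA (log2 difference 0.24; limma adjusted p = 0.0335). ZNF146 (chr19:36214602-36238774), a protein of fingers alone, had 22.6, 20.02 and 22.2 FPKM against 18.1, 17.1 and 19.3 FPKM (0.24; 0.0318). Against unexposed cells, however, ZNF556 was called lower in all 5 exposures (log2 change -0.42 to -0.14), so it fell less with the mixture than with AMPA. ZNF146 was called lower than unexposed in 2 exposures, glyphosate and AMPA, and its log2 changes over the exposures ran from -0.14 to 0.10. ZNF317 was lower with the mixture, at -0.20 (limma adjusted p = 0.0417). The groups did not overlap in any of these 3 genes. The calls were fragile: no member passed when only those groups entered the fit, when the GC and length trend was removed, or without any single AMPA replicate or replicate 1 or 3 of the mixture.

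Unexposed libraries alone also gave differences in the family. Between replicates 4 to 6 and 1 to 3, 36 of the 115 genes were higher without overlap and 4 lower, where 22.9% of all genes were higher and 22.6% lower; the split is a description, with no test. The median difference was 0.10 on the log2 scale, against 0.00 over all genes. Of the 36, 30 had a KRAB box. Over the 161 ZNF genes of other chromosomes, 22 were higher and 29 lower. The 645 other protein-coding genes of chromosome 19 also tilted upward, with more genes higher than lower without overlap. Their median difference was 0.06, so the tilt was not confined to the family. Summed over the 115 genes, FPKM was 289.8 to 295.1 in replicates 1 to 3, 326.0 to 330.0 in replicates 4 to 6 and 303.1 to 323.9 in exposed libraries. Among all 226 genes of the family, tested or not, those at 1 FPKM or more numbered 91 to 95 in replicates 1 to 3 and 102 to 105 in replicates 4 to 6.

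ZNF581 (chr19:55635459-55645622), the member with the highest level, had 22.0, 19.9 and 18.5 FPKM in replicates 1 to 3 and 35.6, 35.7 and 32.5 FPKM in replicates 4 to 6. All 15 exposed libraries lay between, from 24.2 to 30.1 FPKM, and the gene passed in no exposure (log2 change -0.06 to 0.12). It overlaps ZNF580 and CCDC106 on the same strand, so its level is uncertain. ZNF331 rested at 1.29 to 1.41 FPKM in the first set and 2.08 to 2.29 FPKM in the second, with exposed libraries at 1.28 to 1.84 FPKM. ZNF253 had 1.59 to 2.17 and 2.32 to 3.08 FPKM. In the opposite direction, ZNF114 (chr19:48270102-48287608) had 2.76, 3.78 and 5.72 FPKM in replicates 1 to 3 and 1.04, 1.36 and 1.16 FPKM in replicates 4 to 6. Its exposed libraries ran from 0.678 to 1.73 FPKM, overlapping the second set and below the first. It passed as lower with glyphosate + 2,4-D alone (log2 change -0.71, SE 0.28; limma adjusted p = 0.0436), and that call was lost in 20 alternatives.

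Counts against each unexposed set alone are descriptions, each given with the share of all genes tested that lay above or below that set without overlap. With glyphosate, 42 members lay above replicates 1 to 3 (33.1% of all genes) and 25 below (30.9%), and 25 lay above replicates 4 to 6 (31.8%) and 36 below (28.8%). With AMPA the counts were 41 (33.1%) and 27 (30.4%) against the first set and 24 (31.1%) and 38 (27.5%) against the second. With 2,4-D they were 43 (30.9%) and 21 (29.4%), then 20 (28.5%) and 32 (26.6%). Glyphosate + 2,4-D gave 35 (31.3%) and 25 (29.7%), then 19 (29.0%) and 35 (26.7%). AMPA + 2,4-D had 50 above (30.3%) and 16 below (28.1%) the first set, and 29 above (28.8%) and 22 below (26.0%) the second. More members lay above than below the first set in each exposure, and more lay below than above the second in each but AMPA + 2,4-D. Median changes were 0.07, 0.05, 0.09, 0.06 and 0.12 against the first set and -0.05, -0.04, -0.01, -0.04 and 0.01 against the second, in the order used above. Medians of all genes lay between 0.00 and 0.02 against both sets. Genes with a KRAB box had medians of -0.01, -0.04, 0.02, -0.01 and 0.05 against the second set.

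**Figure D4:**
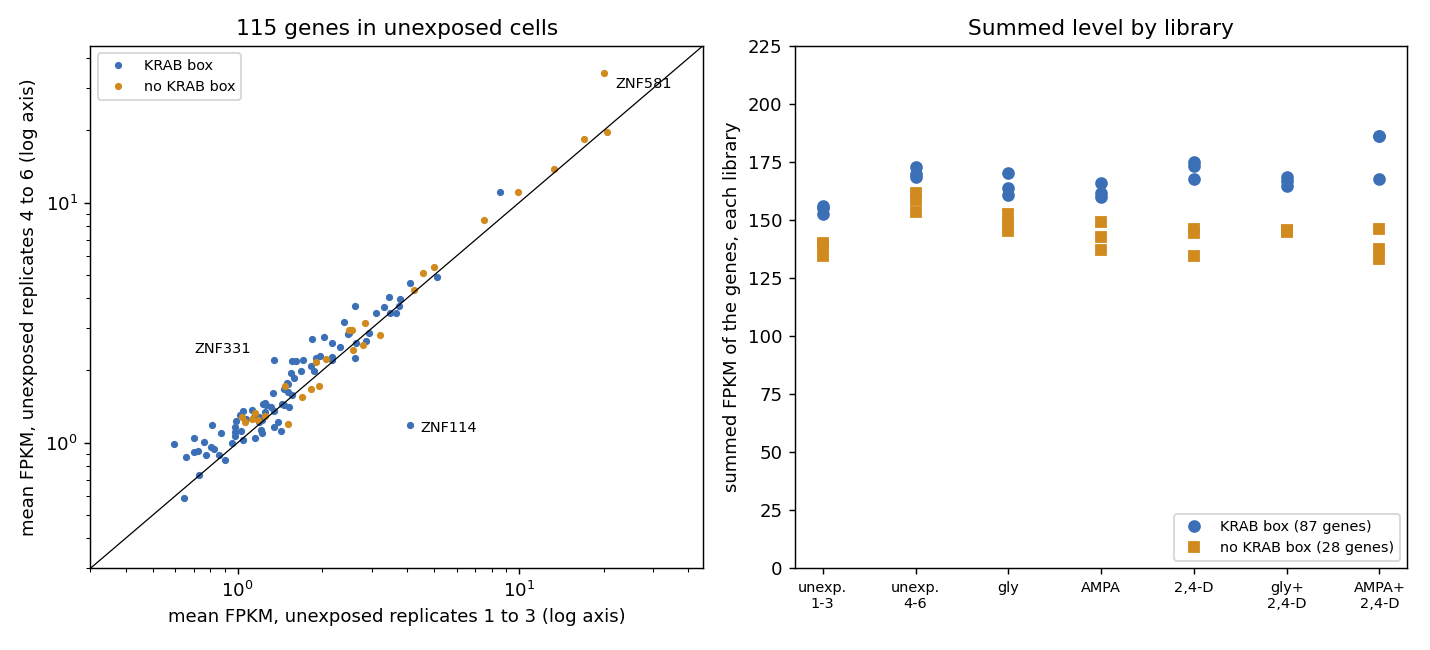
Left, mean FPKM of each of the 115 genes in unexposed replicates 4 to 6 against replicates 1 to 3, on log axes with the line of equality. Right, summed FPKM of the 87 genes with and the 28 without a KRAB box in each library: both sums were higher in replicates 4 to 6 than in 1 to 3. All exposed sums of KRAB genes lay above replicates 1 to 3, and all exposed sums of the other genes lay below replicates 4 to 6. ZNF581 carries much of the difference among the other genes: without it their sums were 114.7 to 120.6 FPKM in replicates 1 to 3, 120.9 to 125.9 FPKM in replicates 4 to 6 and 108.8 to 123.1 FPKM in exposed libraries, so that exposed sums overlapped both sets.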

How the data were processed

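The deposited values were FPKM per gene, made by the authors from bulk RNA-seq of 21 libraries, in 6 tables that also list each deposited gene length (an other, non-expression value). Per the submitters' processing notes the tools include HISAT2 2.0.5 and featureCounts 1.5.0-p3 with GRCh38 (hg38), listed without role; strand setting and FPKM scaling are not given in the sources used here. FPKM times length gave whole reads within 0.1 for 100% of values. Library sizes that the FPKM imply, divided by the recovered reads, ran from 0.942 to 1.01 in exposed and from 1.03 to 1.08 in unexposed libraries. Genes in all 6 tables with at least 1 FPKM in at least 3 libraries were tested with limma 3.58.1 in R 4.3.3 on log2(FPKM + 1), all groups sharing 1 spread, with Benjamini-Hochberg adjustment over 13405 genes. The script was tested on simulated data. KRAB boxes and fingers were searched in coding sequences of GENCODE 29. Named genes were the 4 largest called, non-overlapping changes each way per exposure, and 3 each way between the unexposed sets. Between exposures they were up to 2 called each way (the 2 smallest p-values where none was called). Also named were the 3 highest levels and a short list of well-studied members. Among co-repressors, values were given for TRIM28, SETDB1 and ATF7IP. They were also given for 3 of the genes called in every exposure, picked by mean absolute change after values were seen. The others called in every exposure are listed by name only. ZNF816, ZNF160, ZNF761 and ZNF468 were named after their values were seen. Members and lists were chosen with earlier results of these data known. Alternatives were another pseudocount (0.1), filters, scalings, voom on recovered reads, fits of fewer groups, a replicate block, left-out libraries and, chosen after seeing the data, removal of a GC and length trend and a fit with 1 AMPA + 2,4-D library.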

Additional observations from a re-analysis of the deposited data

Results flagged for a closer look

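Among 34 named genes examined for a stray unexposed library, ZNF841, a KRAB gene of the neighbourhood between 51.57 and 53.58 Mb, had 1 that stood apart: replicate 5 was at 2.35 FPKM, and the next lowest of the 6 was at 2.89 FPKM, a gap of 0.637 of the whole range. Chance alone marks about 1 in 20 such groups. Its exposed values were 3.74, 4.14 and 3.90 FPKM with glyphosate and 3.73, 4.32 and 4.67 FPKM with 2,4-D, above all 6 unexposed libraries, and 1 AMPA library was at 2.86 FPKM, inside their range.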

How the results depend on the processing

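Of the counts of called members, 609 recomputed values stayed within 1.5 times the reported one, 43 fell below and 8 rose above. These values include counts of 0 from comparisons between exposures in which no gene passed. Such counts stayed at 0 whichever library was left out, so the total is no measure of stability. Requiring 2 FPKM left 58 members, of which 16 rose and 13 fell with glyphosate, 17 and 17 with AMPA, 16 and 11 with 2,4-D, 11 and 12 with glyphosate + 2,4-D, and 20 and 10 with AMPA + 2,4-D; fewer genes were tested there. In TPM, 14 rose with AMPA and 21 with AMPA + 2,4-D, and 32 fell with 2,4-D and 35 with glyphosate + 2,4-D. Without unexposed replicates 1 to 3, 17 rose with 2,4-D. With the GC and length trend removed, 20 rose with AMPA + 2,4-D, and with its library 2 alone 9 rose and 8 fell. For other counts that moved, the cause was not tested. Shares of all genes called in the alternatives of this section are not given here. A change in the calls of every gene thus cannot be told from one of the family.

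For AMPA + 2,4-D against AMPA, the 2 higher and 1 lower calls became 0 and 0 with only the groups compared or the GC and length trend removed. They became 1 and 0 with no filter. No lower call remained in TPM or with voom (0 each). There were 7 and 2 calls without unexposed replicates 1 to 3, and 6 higher without replicates 4 to 6. The same replicate numbers did not pair the libraries: deviations of same-numbered libraries correlated at -0.06 to 0.09 (median 0.02, 30 pairs). A fit with a replicate block gave 5 higher calls there, and 33 higher and 23 lower with glyphosate; because only unexposed cells have replicates 4 to 6, this block compares exposed cells with replicates 1 to 3.

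Leaving out 1 library at a time gave 0 to 4 higher and 0 to 2 lower calls for AMPA + 2,4-D against AMPA, 18 to 32 lower with AMPA, 18 to 29 lower with glyphosate and 13 to 21 lower with glyphosate + 2,4-D. The lows of the last 3 came without AMPA replicate 2, glyphosate replicate 3 and glyphosate + 2,4-D replicate 2. ZNF581, called in no exposure, turned with the unexposed set: without replicates 1 to 3 its log2 change was -0.29 with glyphosate, -0.36 with AMPA, -0.32 with 2,4-D and -0.25 with glyphosate + 2,4-D, and with AMPA + 2,4-D it was 0.32 without replicates 4 to 6 and 0.32 with the replicate block. ZNF331 with AMPA + 2,4-D turned to -0.19 without unexposed replicates 1 to 3. Depth in the shallowest library of each member was 17 to 1090 reads, with a median of 97.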
